A study of Mus musculus with 18 samples.

Results

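The genes examined encode 5 proteins of the scaffold that holds sodium channels at the node of Ranvier: Gldn, Nrcam, Nfasc, Ank3 and Sptbn4. They were taken by name, and every array probe whose transcript accession belongs to one of them was kept. This gave 7 probes, 3 of them for Ank3 and 1 for each other gene, out of 55681 probes and 20145 gene symbols on the array. All 7 were well above background on all 18 arrays, so none was lost to the filter on dim probes.

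The cultures were explants of dorsal root ganglia, the sensory ganglia beside the spinal cord, taken from C57BL/6J mouse embryos at E13.5 and grown on matrigel in growth medium for 12 days. The medium was then replaced by a myelination medium, and total RNA was taken just before that change (day 0), after 10 days in it (day 10, early myelination) and after 22 days in it (day 22, mature sheaths abundant). Each day had 3 batches of ganglia, which the study's design text describes as separate pools of embryos and the sample titles call mice, and each batch had 2 technical arrays, so that a day had 6 arrays. No genotype differed between days, and no culture kept in growth medium to day 10 or day 22 was analysed here, so the effects of the medium and of culture time cannot be told apart.

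A node of Ranvier is the bare stretch of axon between neighbouring myelin segments, where the action potential is renewed. In peripheral nerve, gliomedin (Gldn) is released by the Schwann cell and held on its microvilli, where it binds the axonal adhesion molecules NrCAM (Nrcam) and neurofascin-186 (a product of Nfasc). These bind ankyrin-G (Ank3) inside the axon, which gathers sodium channels and is tied to the actin cytoskeleton through beta-IV spectrin (Sptbn4). Nfasc also gives a glial form, neurofascin-155, that Schwann cells place at the paranode beside the node, and NrCAM is made by Schwann cells as well as by neurons.

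The glial ligand and neurofascin rose in the cultures given the medium, and no probe of Ank3 or Sptbn4 did. By day 10 Gldn rose 4.04-fold and Nfasc 2.31-fold against day 0. Neither passed the threshold between day 22 and day 10. On day 22 Gldn had risen 5.43-fold and Nfasc 2.09-fold against day 0. Of the 3 Ank3 probes, 2 fell by 0.40 each on the log2 scale on day 22 against day 0, and Nrcam and Sptbn4 passed the threshold in no comparison.

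Levels are given as log2 of the processed intensity of a probe minus log2 of the 75th percentile of its array, so that 0 is the 75th percentile and 1 unit is a 2-fold difference. A level of a probe was never set against that of another, since probes differ in how well they bind. The 9 means of 2 technical arrays, 3 per day, were compared with limma, and p-values were adjusted by Benjamini-Hochberg over the 30432 probes tested, with a threshold of 0.05. The deposited value table files 12 of the 18 arrays under another batch of the same day than the array files do. The words rose and fell are therefore kept for genes past the threshold under both assignments, called array-file batches and value-table batches, and standard errors (SE) are those of the array-file batches. Where 2 adjusted p-values stand beside 1 difference, the second is that of the value-table batches. The 3 comparisons share their days and are not independent of each other. In bulk RNA, fewer cells of a type and less RNA per cell cannot be told apart.

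Arrays held 59305 spots that were not controls, 54.8 to 61.5% of them well above background, and lay on 3 slides, of which slides 1 and 2 held arrays of all 3 days. Of the markers of the labelled tissue, 14 of 14 neuron markers, 5 of 5 markers of the glial lineage and 10 of 10 of myelinating Schwann cells were well above background on every array. Their levels varied between arrays. The mean level of the 14 neuron markers ranged over 3.26 to 4.25 on day 0, 3.84 to 4.28 on day 10 and 3.19 to 3.94 on day 22, and 4 of the 14 had fallen on day 22 against day 0. Elavl3, a neuronal RNA-binding protein, was among them (-0.68 ± 0.20 SE), while Tubb3, neuronal tubulin (0.23 ± 0.17), and Nefl, the light neurofilament (-0.25 ± 0.24), did not pass. The mean of 10 markers of myelinating Schwann cells ranged over 3.67 to 4.44, 5.31 to 5.74 and 4.34 to 5.70 on days 0, 10 and 22, and that of the 9 macrophage markers tested of 10 over -1.65 to 0.27, 0.41 to 2.01 and 1.76 to 4.19. Lyz2, a lysozyme of macrophages, rose by 5.15 ± 0.38 on day 22 against day 0. Sox10, a transcription factor of the glial lineage, differed by -0.62 ± 0.16 on day 22 against day 0 (adjusted p = 0.0152 and 0.0502). Levels were also set against the mean of the neuron markers, or of the 5 glial lineage markers, on the same array. The median difference of all probes was -0.07, -0.02 and -0.10 in the order day 10 against day 0, day 22 against day 10 and day 22 against day 0, without this step. Against neuron markers the medians were -0.16, 0.51 and 0.35, and against glial lineage markers they were -0.03, 0.19 and 0.15, and such differences are to be read against them. The second array of batch 1 of day 0 stood apart with the lowest neuron marker level of its day, 3.26 against 4.05 or more on the others, and without it the calls of all 7 probes in the comparisons with day 0 stayed on their side of the threshold by array-file batches. Gldn then differed by 2.02 and 2.44 on days 10 and 22 against day 0, Nrcam by 0.35 and 0.37, and the Ank3 probes A_65_P13713, A_52_P351925 and A_55_P2012999 by -0.38, -0.16 and -0.32 on day 22 against day 0.

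Gldn was read by probe A_55_P1982499 (NM_177350). Its level on the 6 arrays of day 0 had a lowest value of 2.37, a median of 3.37 and a highest value of 3.76. On day 10 these were 4.69, 5.31 and 5.60, and on day 22 they were 5.03, 5.82 and 6.02. Every array of days 10 and 22 lay above every array of day 0, and the 2 later days overlapped. Batch means averaged 3.23 ± 0.46, 5.24 ± 0.24 and 5.67 ± 0.26 on days 0, 10 and 22 (SD, n = 3 batches each). Gldn rose by 2.02 ± 0.24 SE on day 10 against day 0 (95% interval 1.47 to 2.56; adjusted p = 0.00101, and 0.00319 with value-table batches). The rise on day 22 against day 0 was 2.44 ± 0.24 (adjusted p = 0.000135 and 0.000283). The order was thus day 22, day 10 and day 0, and the step between the first of these and the next, 0.43 ± 0.24, did not pass (interval -0.12 to 0.97; adjusted p = 0.305).

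The size of the Gldn difference was alike within slides 1 and 2, and its call was lost within slide 1. The day 10 difference from day 0 was 1.95 with the slide as a block (adjusted p = 1.96e-05), 2.00 within slide 1 (0.0727) and 2.00 within slide 2 (0.0385). That of day 22 was 2.43 with the block (4.59e-07), 2.16 within slide 1 (0.0574) and 2.47 within slide 2 (0.0103). Of the markers of myelinating Schwann cells, 6 of 10 rose and 0 fell on day 10 against day 0, with a median difference of 0.89. On day 22 against day 0, 5 of these 10 rose and 0 fell (median 0.64). On day 22 against day 10, where Gldn did not pass either, 0 rose and 0 fell (median -0.22). Of the macrophage markers, 9 of 9 rose on day 22 against day 0, with a median of 3.39. The part of either marker list in the Gldn difference was not tested. Set against the glial lineage markers of the same array, the Gldn difference was 2.06 on day 10 and 2.70 on day 22 against day 0 (adjusted p = 0.000281 and 1.83e-05). Against the neuron markers the difference on day 22 against day 10 was 0.96 (adjusted p = 0.0417), where all probes had a median of 0.51.

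The start of Gldn and those of Nfasc are printed because these were the genes that rose. Each window holds 300 bases around an annotated transcript start, most of them before it, from RefSeq on GRCm38.p6, which is not the mm9 build that the array design names, and reads 5′ to 3′ on the strand of the gene. Capitals mark matches to 3 motifs searched on both strands: ACAAAG, the core bound by SOX factors, GCGTGGG, the core bound by EGR factors, and GGGCGG, the GC box. Of 32851 such windows in the table, 18.7% held the first, 5.04% the second and 35.7% the third. The Gldn window lies at chr9:54286236-54286535 on the plus strand and had 65.0% G and C, against a median of 52.7% over all windows. It held 1 GC box, on the opposite strand, and no match to the SOX or EGR core, which says only that these letters are not in this window.
Gldn window: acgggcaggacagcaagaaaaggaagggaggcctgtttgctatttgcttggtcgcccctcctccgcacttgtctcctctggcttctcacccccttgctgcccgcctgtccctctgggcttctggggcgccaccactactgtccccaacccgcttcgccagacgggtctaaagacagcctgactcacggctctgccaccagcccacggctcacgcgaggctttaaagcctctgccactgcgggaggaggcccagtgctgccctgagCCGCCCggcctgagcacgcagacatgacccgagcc

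Nrcam was read by probe A_55_P2003541 (NM_176930). Its level had a lowest value, median and highest value of 3.60, 3.97 and 4.23 on day 0, of 4.0, 4.16 and 4.38 on day 10, and of 3.64, 4.25 and 4.49 on day 22. All 3 days overlapped, and day 22 alone spanned nearly the whole range. Batch means averaged 3.91 ± 0.16, 4.16 ± 0.11 and 4.18 ± 0.29 on days 0, 10 and 22 (SD, n = 3 each). The difference was 0.25 ± 0.15 on day 10 against day 0 (95% interval -0.10 to 0.60; adjusted p = 0.255) and 0.27 ± 0.15 on day 22 against day 0 (interval -0.08 to 0.61; adjusted p = 0.191). Between day 22 and day 10 it was 0.01 ± 0.15 (interval -0.33 to 0.36; adjusted p = 0.967). These intervals leave room for a change of up to about 0.6 in either later day, so equal levels were not shown. The day 22 difference passed when 1 batch or array was left out: it was 0.40 without batch 1 of day 22 (adjusted p = 0.0485) and 0.35 without the first array of that batch (0.0446). Against the neuron markers it was 0.71 (adjusted p = 0.0215), where all probes had a median of 0.35. Against the glial lineage markers it was 0.52 (adjusted p = 0.0223), where all probes had a median of 0.155. With the slide as a block it was 0.24 (adjusted p = 0.105), within slide 1 it was -0.004 (0.988) and within slide 2 it was 0.46 (0.234).

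Nfasc was read by probe A_55_P2173011 (NM_182716), and the files do not say whether this probe separates the axonal from the glial form. Its level on day 0 had a lowest value of 0.25, a median of 1.18 and a highest value of 1.61. On day 10 these were 1.98, 2.32 and 2.54, and on day 22 they were 1.35, 2.15 and 2.78. All arrays of day 10 lay above all arrays of day 0, and on day 22 the first array of batch 1 fell inside the range of day 0. Batch means averaged 1.09 ± 0.38, 2.30 ± 0.14 and 2.15 ± 0.54 on days 0, 10 and 22 (SD, n = 3 each). Nfasc rose by 1.21 ± 0.27 SE on day 10 against day 0 (95% interval 0.58 to 1.83; adjusted p = 0.0129, and 0.0371 with value-table batches). It rose by 1.07 ± 0.27 on day 22 against day 0 (interval 0.44 to 1.69; adjusted p = 0.0136 and 0.0290). Day 10 had the highest mean, but it did not differ from day 22 by the test used (-0.14 ± 0.27, interval -0.77 to 0.49; adjusted p = 0.803).

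Within single slides the Nfasc call was kept in 1 case, day 22 against day 0 in slide 2. The difference of day 10 from day 0 was 1.24 with the slide as a block (adjusted p = 0.000538), 1.15 within slide 1 (0.128) and 0.95 within slide 2 (0.0769). For day 22 it was 1.01 with the block (0.00101), 0.42 within slide 1 (0.517) and 1.12 within slide 2 (0.0267). Without the second array of batch 1 of day 0, the lowest of all for this gene, the differences were 1.06 on day 10 and 0.91 on day 22 (adjusted p = 0.0226 and 0.0205). Against the neuron markers they were 1.12 and 1.51 (adjusted p = 0.00241 and 6.38e-05), where all probes had medians of -0.16 and 0.35. Against the glial lineage markers they were 1.25 and 1.32 (0.0027 and 0.000698), where all probes had medians of -0.025 and 0.155.

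RefSeq lists 2 transcript starts for Nfasc, at chr1:132642809-132643108 and chr1:132707277-132707576 on the minus strand of GRCm38.p6, with 52.0 and 54.3% G and C. The first window held none of the 3 motifs and the second held 1 GC box, in capitals.
Nfasc window 1: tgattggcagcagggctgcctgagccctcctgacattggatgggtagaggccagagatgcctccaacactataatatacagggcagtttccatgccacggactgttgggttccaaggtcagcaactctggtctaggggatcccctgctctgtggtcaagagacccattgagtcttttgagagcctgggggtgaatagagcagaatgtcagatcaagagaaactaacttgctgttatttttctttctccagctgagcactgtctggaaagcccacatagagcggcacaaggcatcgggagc
Nfasc window 2: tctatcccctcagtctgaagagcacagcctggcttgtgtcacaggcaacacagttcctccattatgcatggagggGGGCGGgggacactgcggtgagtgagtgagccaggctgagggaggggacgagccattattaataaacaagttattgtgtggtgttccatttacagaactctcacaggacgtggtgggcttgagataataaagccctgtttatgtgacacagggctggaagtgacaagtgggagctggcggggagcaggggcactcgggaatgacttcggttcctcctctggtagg
Of the remaining genes, Nrcam had 1 window, with 2 GC boxes. Sptbn4 had 4 windows, with 1, 4, 1 and 2 GC boxes, and the last of them also held 1 EGR core. Ank3 is named only.

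Ank3 was read by 3 probes, A_65_P13713 and A_52_P351925 for 1 transcript (NM_146005) and A_55_P2012999 for another (NM_170728). The files give no position of the probes within the transcripts. On A_65_P13713 the lowest, median and highest array were at 2.07, 2.29 and 2.43 on day 0, at 1.94, 2.00 and 2.11 on day 10, and at 1.59, 1.91 and 2.00 on day 22. All arrays of day 22 lay below all arrays of day 0, and day 10 overlapped both. Batch means averaged 2.28 ± 0.12, 2.01 ± 0.03 and 1.87 ± 0.15 on days 0, 10 and 22 (SD, n = 3 each). This probe fell by 0.40 ± 0.10 SE on day 22 against day 0 (95% interval -0.63 to -0.18; adjusted p = 0.0109, and 0.00873 with value-table batches). Its difference on day 10 against day 0, -0.26 ± 0.10, did not pass (adjusted p = 0.0784).

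On A_55_P2012999, the probe of the second transcript, arrays had a lowest, median and highest level of -1.04, -0.75 and -0.44 on day 0, of -1.49, -1.22 and -1.07 on day 10, and of -1.37, -1.25 and -0.70 on day 22. Day 10 lay wholly below day 0, by a narrow gap, and 1 array of day 22, the first of batch 3, stood inside the range of day 0. This probe fell by 0.48 ± 0.10 SE on day 10 against day 0 (adjusted p = 0.00990, and 0.0259 with value-table batches) and fell by 0.40 ± 0.10 on day 22 against day 0 (0.0128 and 0.0231). The third probe, A_52_P351925, ran over 0.85 to 1.23 on day 0, 0.63 to 0.98 on day 10 and 0.63 to 0.93 on day 22, with medians of 1.02, 0.74 and 0.85. Its days overlapped, and its differences from day 0, -0.25 ± 0.09 on day 10 and -0.20 ± 0.09 on day 22, did not pass (adjusted p = 0.0656 and 0.0985). No Ank3 probe passed on day 22 against day 10, where the differences were -0.14, 0.05 and 0.08 in the order A_65_P13713, A_52_P351925, A_55_P2012999 (adjusted p = 0.420, 0.782 and 0.693).

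Whether the Ank3 probes differed from each other was tested as the change of a probe minus that of the brightest probe of its gene, over 4599 such pairs. Between day 22 and day 0, the difference of A_52_P351925 was less negative than that of A_65_P13713, by 0.20 ± 0.05 with array-file batches (adjusted p = 0.0244), and this did not pass with value-table batches (0.0618). Of all pairs, 14.9% passed in that comparison, 5.63% on day 10 against day 0 and 0.391% on day 22 against day 10. Between the 2 probes that fell, 1 for each transcript, the difference was -0.00019 ± 0.08 (adjusted p = 0.999). For day 10 against day 0 neither pair passed (adjusted p = 0.946 and 0.183), nor on day 22 against day 10 (0.157 and 0.317).

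Neuron markers also stood lower on day 22. Set against them, the Ank3 differences on day 22 against day 0 were 0.04, 0.25 and 0.04 for A_65_P13713, A_52_P351925 and A_55_P2012999 (adjusted p = 0.894, 0.396 and 0.894), where all probes had a median of 0.35. Set against the 5 glial lineage markers they were -0.15, 0.05 and -0.15 (adjusted p = 0.489, 0.816 and 0.471). Against neuron markers on day 10 they were -0.35, -0.34 and -0.57 (adjusted p = 0.393, 0.398 and 0.130). Within slide 1 the falls of A_65_P13713 and A_55_P2012999 on day 22 against day 0 were -0.62 and -0.59 (adjusted p = 0.0725 and 0.0811), within slide 2 they were -0.40 and -0.27 (0.107 and 0.385), and with the slide as a block they were -0.41 and -0.42 (0.000244 and 0.00324). The probe A_55_P2012999 differed on day 10 against day 0 by -0.49 within slide 1, -0.57 within slide 2 and -0.52 with the block (adjusted p = 0.111, 0.163 and 0.00151).

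Sptbn4 was read by probe A_55_P2075966 (NM_032610). Its level had a lowest value, median and highest value of 0.05, 0.85 and 1.15 on day 0, of 1.14, 1.37 and 1.47 on day 10, and of 0.36, 0.80 and 1.20 on day 22. The arrays of day 10 stood together at the top, 1 array of day 0 reached them, and day 22 was split, with 3 arrays at 0.36 to 0.51 and 3 at 1.10 to 1.20. Batch means averaged 0.75 ± 0.28, 1.33 ± 0.14 and 0.79 ± 0.35 on days 0, 10 and 22 (SD, n = 3 each). The difference was 0.57 ± 0.20 SE on day 10 against day 0 (95% interval 0.12 to 1.03; adjusted p = 0.0611, and 0.112 with value-table batches). It was -0.54 ± 0.20 on day 22 against day 10 (interval -0.99 to -0.08; adjusted p = 0.132) and 0.04 ± 0.20 on day 22 against day 0 (interval -0.42 to 0.49; adjusted p = 0.897). Day 10 thus had the highest mean, and no pair of days differed past the threshold.

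The first of these differences lay near the threshold, and several settings carried it over. It was 0.61 with quantile normalization (adjusted p = 0.0485), 0.53 with normexp background correction (0.0493) and 0.60 with the slide as a block (0.0112), but 0.48 and 0.42 within slides 1 and 2 (0.334 and 0.247). Without the second array of batch 1 of day 0 it was 0.44 (adjusted p = 0.121). The difference of -0.54 on day 22 against day 10 became -0.60 with the slide as a block (adjusted p = 0.021), -0.84 and -0.35 within slides 1 and 2 (0.302 and 0.583), and -0.003 when set against the neuron markers (0.990). Set against the glial lineage markers, Sptbn4 differed by 0.62 on day 10 and 0.29 on day 22 against day 0 (adjusted p = 0.0362 and 0.232), and against the neuron markers by 0.49 and 0.48 (0.126 and 0.0692).

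**Figure D1:**
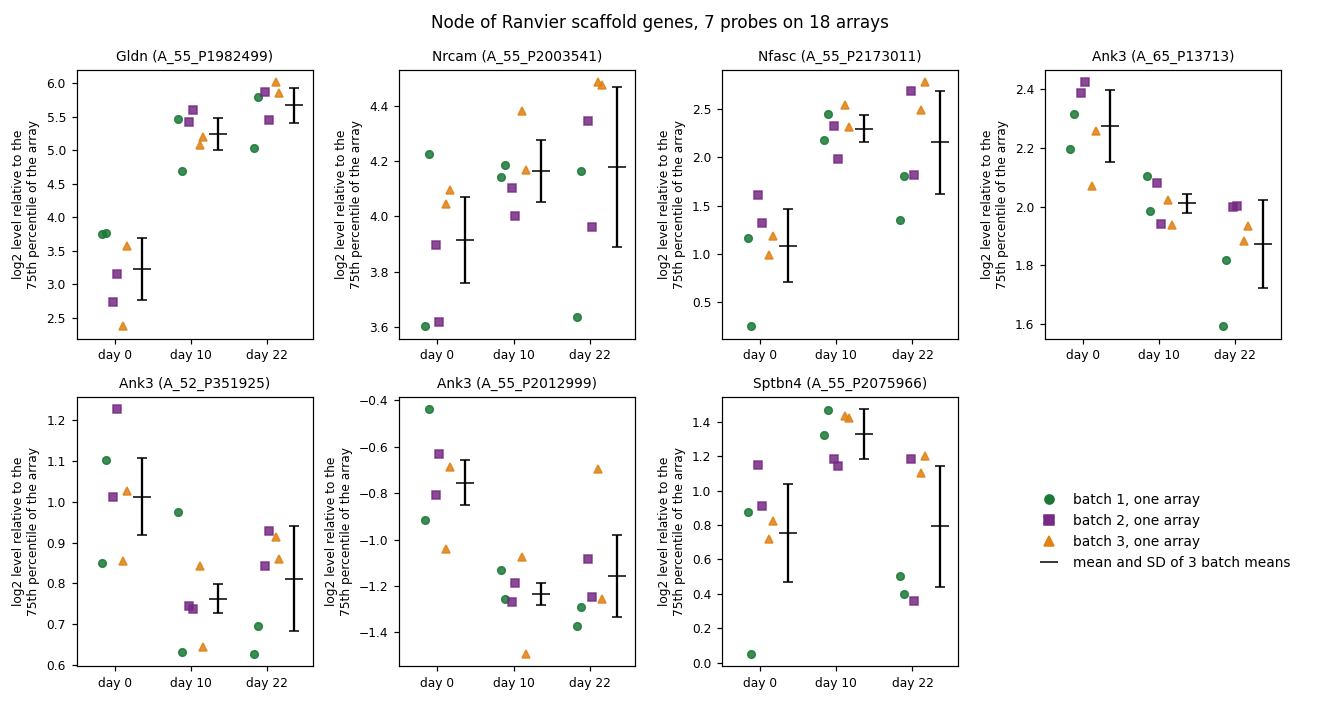
Log2 level, with the array's 75th percentile at 0 (vertical axis, a separate scale for each probe) by day, for the 7 probes, with 1 point per array, coloured by batch, and a bar for the mean and SD of 3 batch means. Gldn and Nfasc stand higher on day 10 than on every array of day 0, Nrcam overlaps on all days, and Sptbn4 is split on day 22.

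Counted over probes, 2 of 7 rose (Gldn and Nfasc) and 1 fell (an Ank3 probe) on day 10 against day 0, with either set of batches. Among all probes tested, 10.7% were higher and 18.5% lower by array-file batches (29.2% in all), and 5.36% and 7.91% by both sets (13.3%). The same 3 probes had all arrays of day 10 apart from those of day 0, as did 7.27% of all probes upward and 9.16% downward (16.4%). Between day 22 and day 0, 2 of 7 rose and 2 fell, against 16.2% higher and 28% lower by array-file batches (44.2%) and 11.9% and 19.1% by both sets (31%). All arrays were apart for Gldn upward and 1 Ank3 probe downward, against 8.87% and 13.3% of all probes (22.2%). Between day 22 and day 10, 0 of 7 passed in either direction, where 3.76% of all probes were higher and 5.1% lower by array-file batches (8.86%), and 0.46% and 1.33% by both sets (1.79%). At an unadjusted p under 0.05 in limma, Sptbn4 was the 1 probe lower there and 0 were higher. For 0 of 7 probes were all arrays of these days apart, against 2.94% of all probes upward and 5.34% downward (8.28%). With 7 probes of 5 genes, of which 3 share a gene, such shares are coarse.

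By gene, with the brightest probe for Ank3, the median difference of the 5 was 0.57 on day 10 against day 0, -0.14 on day 22 against day 10 and 0.27 on day 22 against day 0. Over all probes tested the medians were -0.07, -0.02 and -0.10. Of all calls 36.7, 42.5 and 36.6% were higher in these comparisons, against 40.9, 95.5 and 83.3% when levels were set against the neuron markers and 52.9, 62.3 and 69.7% against the glial lineage markers.

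**Figure D2:**
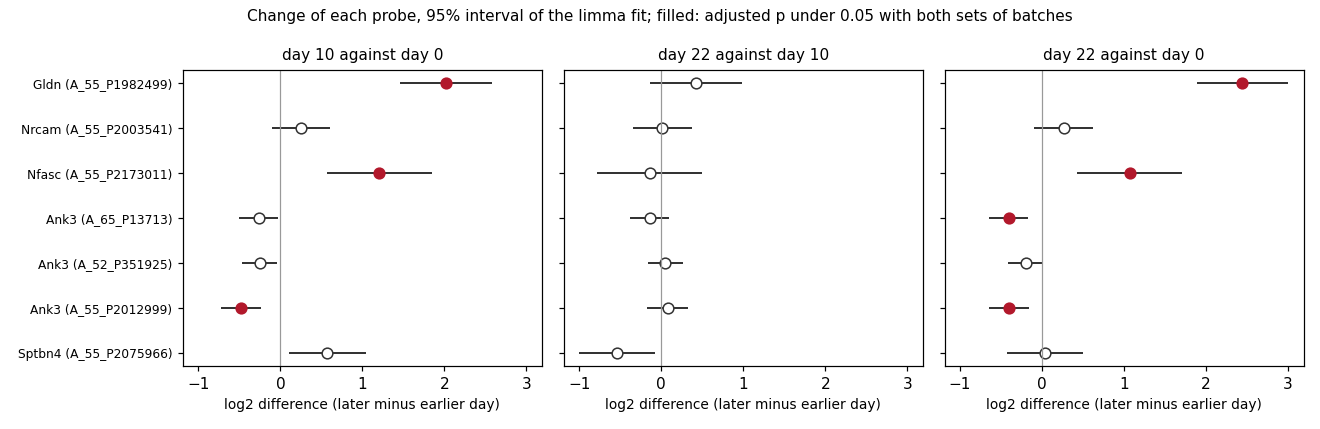
Log2 difference of each probe (horizontal axis, later minus earlier day) with its 95% interval, in 3 panels for the 3 comparisons; filled points passed the threshold with both sets of batches. Gldn and Nfasc lie right of 0 in the outer panels, all 3 Ank3 probes lie left of 0 on day 22 against day 0, 2 of them filled, and no point is filled on day 22 against day 10.

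On single arrays of day 22, Sptbn4, Nfasc, Nrcam and Gldn all stood lower where the neuron and glial lineage markers did. On day 22 the 3 arrays with Sptbn4 at 0.36 to 0.51 were both arrays of batch 1 and the second of batch 2. They had neuron markers at 3.19 to 3.28, and the other 3 arrays of that day had them at 3.75 to 3.94. Nfasc on the same arrays was 1.35, 1.80 and 1.82, against 2.68, 2.49 and 2.78 on the others. Nrcam was 3.64, 4.16 and 3.96, against 4.34, 4.49 and 4.48, and Gldn was 5.03, 5.79 and 5.45, against 5.86, 6.02 and 5.86. The 2 sets of arrays were picked by Sptbn4, so its own separation was given. Ank3 (A_65_P13713) was at 1.59, 1.82 and 2.00, against 2.00, 1.88 and 1.94. The share of all probes that set these arrays apart was not computed, so the separation cannot be called particular to these genes. Glial lineage markers were also lower on the first 3 arrays, at 3.20, 3.83 and 3.86 against 4.10, 4.03 and 4.16. So were those of myelinating Schwann cells, at 4.34, 5.15 and 5.26 against 5.52, 5.60 and 5.70. Markers of sensory neurons overlapped, at 3.23, 2.95 and 3.02 against 3.11, 3.28 and 3.38. Macrophage markers ran the other way, at 4.19, 3.47 and 3.89 on the first 3 arrays and 1.92, 1.76 and 2.52 on the others. Fibroblast markers did too, at 6.06, 5.87 and 6.01 against 5.11, 5.41 and 5.56. The array of day 0 with the lowest neuron markers, at 3.26, had the lowest Sptbn4 (0.05) and the lowest Nfasc (0.25) of all 18. Yet it had the highest Gldn (3.76) and Nrcam (4.23) of day 0, whereas on day 22 these genes stood lower with the neuron markers. Its mean of the myelinating Schwann cell markers, 4.44, was also the highest of day 0. Ank3 stood inside the range of its day on A_65_P13713 (2.32) and highest of its day on A_55_P2012999 (-0.44). The part of cell makeup in these differences was not tested. Setting levels against neuron or glial lineage markers shifts all probes of an array alike and is no test of it.

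**Figure D3:**
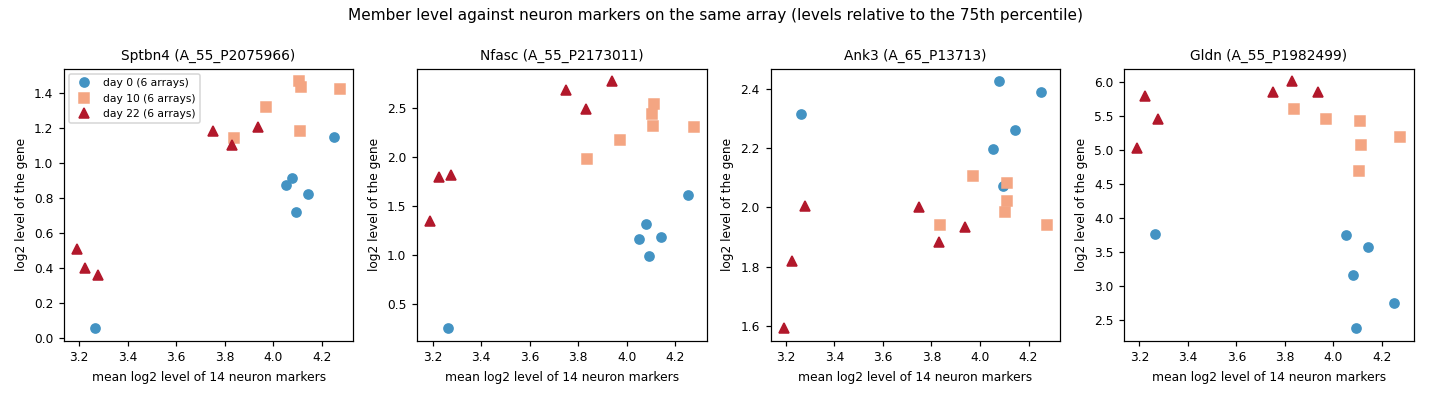
Level of Sptbn4, Nfasc, Ank3 (A_65_P13713) and Gldn (vertical axes, log2) against the mean log2 level of 14 neuron markers on the same array (horizontal axis), 1 point per array and 1 colour per day. The 4 arrays with the lowest neuron markers hold the 4 lowest Sptbn4 levels, and Gldn on day 0 lies below the later days on every array.

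Over the 18 arrays, which span the 3 days, Sptbn4 and Nfasc had a Pearson correlation of 0.76 and Gldn and Nfasc one of 0.73. Gldn and Sptbn4 had 0.23, and Nrcam had 0.52, 0.57 and 0.31 with Gldn, Nfasc and Sptbn4. The 3 Ank3 probes correlated with each other at 0.72 to 0.84 and with Gldn at -0.69 to -0.49. These values are descriptions, since the arrays share batches, slides and their scaling.

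Among 13471 other genes measured above background on every array, the likest to each member over the 18 arrays were found by Pearson correlation. For Gldn they were Il16, a cytokine (0.97), Cdadc1, a protein with deaminase domains (0.96), and Mlkl, the executor of necroptosis (0.96), whose mean levels were -2.29, -0.26 and 0.30 on days 0, 10 and 22. For Nfasc they were Kcnk1, a potassium channel (0.96), Tmem59l (0.96) and Ackr1, a chemokine-binding receptor (0.96). For Sptbn4 they included Ppp2r5b, a regulatory subunit of protein phosphatase 2A (0.97), and Pfkm, a phosphofructokinase (0.95). Nrcam was nearest to P2ry2, a receptor for extracellular nucleotides (0.94), Spire1, an actin nucleator (0.90), and Dpy19l1 (0.90). Ank3 was nearest to Mbnl2, a splicing regulator (0.94), Atrn, which encodes attractin (0.94), and Ckap5, a microtubule polymerase (0.93).

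The rest of the node was read with 75 other genes in 6 lists, each by its brightest probe. On day 10 against day 0, 7 were higher and 10 lower by array-file batches, 3 and 7 by both sets, with a median of -0.04. These are 9.33% and 13.3% of the 75 by array-file batches, against 10.7% and 18.5% of all probes, and 4% and 9.33% by both sets, against 5.36% and 7.91%. For day 22 against day 0 the counts were 8 and 23, 7 and 16 by both sets, with a median of -0.26. The shares were 10.7% and 30.7% by array-file batches, against 16.2% and 28% of all probes, and 9.33% and 21.3% by both sets, against 11.9% and 19.1%. Between days 22 and 10 they were 0 and 5, 0 and 0 by both sets, and 1 and 11 with the batch as a replicate block, with a median of -0.28. At an unadjusted p under 0.05 in limma, 7 were higher and 25 lower there. By array-file batches 6.67% were lower, against 5.1% of all probes. The counts of single lists below stand against the same shares of all probes.

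Sodium channels are the cargo of this scaffold. Of 12 nodal ion channel genes tested, 0 rose and 2 fell on day 10 against day 0 (3 and 2 at an unadjusted p under 0.05 in limma, median 0.03), and 1 rose and 3 fell on day 22 against day 0 (median -0.58). Of the alpha subunits, Scn3a and Scn2a fell by 1.39 ± 0.22 and by 0.79 ± 0.17 on day 10 against day 0. On day 22 they fell by 2.11 ± 0.22 and by 1.59 ± 0.17 against day 0. The alpha subunits Scn1a, Scn8a, Scn10a and Scn11a, named after their values were seen, passed in no comparison. Between day 22 and day 0 these differed by -0.72, 0.53, -0.18 and -0.81. Scn4b, a beta subunit, differed by 1.45 ± 0.37 on day 10 against day 0 and passed only with array-file batches (adjusted p = 0.0952 with value-table batches). Scn2b, another beta subunit, differed by -0.77 ± 0.19 on day 22 against day 10 and by -0.73 ± 0.19 on day 22 against day 0, also with the array files only (adjusted p = 0.171 and 0.0578 with the value table, and 0.0524 with the array files and a replicate block in the first of these comparisons). Kcnk4, a potassium channel of nodes, was the remaining fall on day 22 against day 0 (-0.52 ± 0.12) and is named after its value was seen. Scn9a and Scn3b had no matched probe, and Kcnq3 did not pass the filter.

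In the spectrin and ankyrin cytoskeleton, 2 of 19 rose and 1 fell on day 10 against day 0 (median 0.09), and 2 rose and 5 fell on day 22 against day 0 (median -0.19). Sptb, the beta-I spectrin, cleared background on 5 of 6 day 0 arrays. It rose by 1.83 ± 0.28 on day 10 and by 2.34 ± 0.28 on day 22 against day 0. Tmod1, which caps actin filaments, rose by 1.32 ± 0.13 and 1.24 ± 0.13, and Add3, an adducin that joins spectrin to actin, fell by 0.60 ± 0.10 and by 0.56 ± 0.10. Add1, another adducin, fell by 0.44 ± 0.10 on day 22 against day 0. The other 3 falls there, named after their values were seen, were Csnk2a2 and Csnk2b, subunits of casein kinase 2 (-0.42 ± 0.07 and -0.35 ± 0.08), and the actin-capping Tmod2 (-0.38 ± 0.13, and adjusted p = 0.0618 with a replicate block). Fgf13, an intracellular partner of sodium channels (-1.08 ± 0.23 on day 22 against day 0), and Csnk2a2 (-0.24 ± 0.07 on day 10 against day 0), passed only with array-file batches in those comparisons. With a replicate block Csnk2a2 on day 10 was at adjusted p = 0.0544, and Fgf13 passed with value-table batches too (adjusted p = 0.00487).

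Schwann cell microvilli and the perinodal matrix gave 0 rises and 2 falls of 19 on day 10 against day 0 (2 and 5 at an unadjusted p under 0.05 in limma, median -0.13), and 1 rise and 2 falls on day 22 against day 0 (median -0.12). Bcan, the matrix proteoglycan brevican, fell by 1.15 ± 0.24 and by 2.01 ± 0.24, and Vcan, versican, rose by 1.20 ± 0.40 on day 22. The other falls, named after their values were seen, were the syndecan Sdc4 on day 10 (-0.42 ± 0.13) and the dystroglycan gene Dag1 on day 22 (-0.44 ± 0.15). With a replicate block these had an adjusted p of 0.0582 and 0.0645. Tnc, or tenascin-C (-1.20 ± 0.35 on day 10), Utrn, or utrophin (-0.48 ± 0.11 on both days), and Slc9a3r1, a partner of ezrin in microvilli (-0.61 ± 0.19 on day 22), passed only with array-file batches. Adding a replicate block to the value-table batches brought Utrn and Slc9a3r1 on day 22 to adjusted p = 0.0384 and 0.0345.

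At the paranode and juxtaparanode 1 of 16 rose and 0 fell on day 10 against day 0 (3 and 1 at an unadjusted p under 0.05 in limma, median -0.02), and 2 rose and 3 fell on day 22 against day 0 (median -0.28). Dlg2, a scaffold of juxtaparanodal potassium channels, rose by 0.88 ± 0.19 and 0.58 ± 0.19 (adjusted p = 0.0606 on day 22 with a replicate block), and Lgi4, a secreted regulator of Schwann cell myelination, rose by 0.43 ± 0.15 on day 22. Gal3st1, which makes sulfatide, fell by 0.68 ± 0.16 on day 22, as did the membrane cytoskeleton linkers Epb41l3 (-0.46 ± 0.10) and Epb41l2 (-0.46 ± 0.13). Ugt8a, which makes galactosylceramide, differed by 0.89 ± 0.24 on day 10 with the array files only (adjusted p = 0.0531 with the value table). Gal3st1 on day 22 against day 10 (-0.66 ± 0.16) was the same (0.0885). With a replicate block as well as value-table batches, these had an adjusted p of 0.0263 and 0.0352.

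The other L1 family and olfactomedin domain genes gave 1 rise in all. Of the other L1 family adhesion molecules, kin of Nrcam and Nfasc, L1cam and Chl1 passed in no comparison with both sets of batches (medians of -0.19 and -0.04 on days 10 and 22 against day 0), and L1cam differed by -0.37 ± 0.13 on day 22 against day 0 (adjusted p = 0.0452 and 0.0838, and 0.0607 for array-file batches and a replicate block). Of 7 other genes with an olfactomedin domain, the domain by which gliomedin binds its partners, 0 rose and 2 fell on day 10 against day 0 (1 and 3 at an unadjusted p under 0.05 in limma, median -0.08), and 1 rose and 3 fell on day 22 against day 0 (median -0.62). Olfml2a fell by 1.06 ± 0.21 and by 1.64 ± 0.21, Olfm1 fell by 0.47 ± 0.13 and by 0.89 ± 0.13, and Olfm3 fell by 1.34 ± 0.14 on day 22. Olfml1 rose by 1.18 ± 0.16 on day 22 against day 0, and Olfml3 (0.68 ± 0.22) and Olfm2 (-0.62 ± 0.18) passed there only with the array files. Olfml1 had differed by 0.90 ± 0.16 on day 10 against day 0 with the array files only. Olfm3 and Olfm2 differed by -1.44 ± 0.14 and -0.72 ± 0.18 on day 22 against day 10, again with the array files only (adjusted p = 0.0836 and 0.147 with the value table). With a replicate block added to the value-table batches, the fall of Olfml2a on day 10 was at adjusted p = 0.0555, and the difference of Olfm3 on day 22 against day 10 was at 0.0284.

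**Figure D4:**
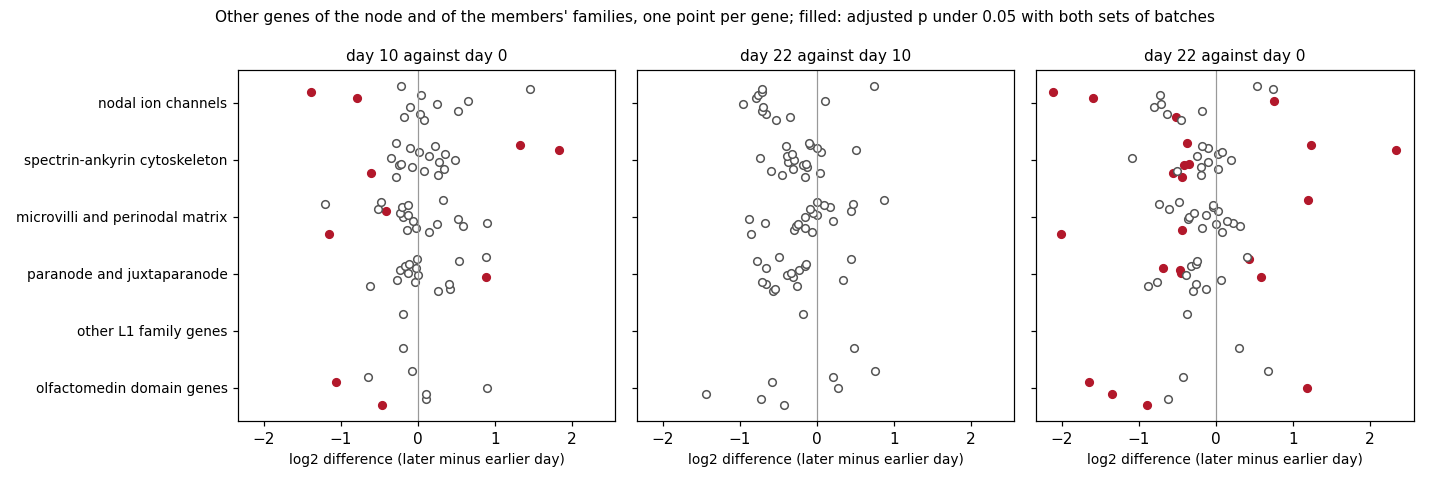
Log2 difference (horizontal axis, later minus earlier day) of each of the 75 other genes, 1 point per gene in the row of its list, in 3 panels for the 3 comparisons; filled points passed the threshold with both sets of batches. Points spread on either side of 0 in every list with more than 2 genes, and no point is filled on day 22 against day 10.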

How the data were processed

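Total RNA of 18 samples was labelled with Cy3 and each hybridised to a single-colour Agilent array. The deposited array files hold the processed intensity of each spot, background-subtracted, per the file headers, by Agilent Feature Extraction 10.7.1.1 (the submitters' processing notes say 10.7.1), and flag columns of 0 and 1 (other values) from the same software. A value table of intensity was deposited as well, and its making is not given in the sources used. Of its 18 columns, 12 matched the array file of another sample of the same day.

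From these, log2 values were computed here by dividing each processed intensity by its array's 75th percentile over all spots that were not controls. Spots flagged as outliers were then left out, and the repeated spots of a probe were averaged. Testing was limited to probes for which some day had all 6 arrays well above background (30432 of 55681). Accessions were matched to a RefSeq table of assembly GRCm38.p6. The means of technical arrays were fitted with limma 3.58.1 in R 4.3.3 (lmFit and eBayes, the 3 days as groups, no covariate), with Benjamini-Hochberg adjustment over all probes. The procedure was also run on simulated batch values with independent noise. These held no shared batch effects and no technical arrays, so the simulation does not bear on either. Background correction by normexp used the median spot signal, since the files hold no mean signal, and an offset of 50. The number of arrays limits the precision.

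Batch numbers mark a shared batch in the study's design text. Between days, same-numbered batches deviated from their day means with correlations of -0.12 to 0.35 (6 of 9 above 0.1) in the array files and -0.04 to 0.43 (8 of 9) in the value table. The main fit had no term for the batch, so the words rose and fell take no account of such pairing. With the batch as a replicate block no call of a member changed. The falls of Tmod2 and Dag1 and the rise of Dlg2 on day 22, and the fall of Sdc4 on day 10, did not pass with it. The members, the gene lists, the naming rule and the tests were chosen with earlier results of these data known. The text names all member probes, up to 3 genes per list, direction and comparison by size of change among those past the threshold, the 3 genes likest to each member, and 6 marker genes, except for 3 genes that are not reported here. Genes beyond this rule were named after their values were seen, and a gene named for 1 comparison may be given in another. Alternative settings were 23 chosen at the outset and 4 added after the data were seen.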

Additional observations from a re-analysis of the deposited data

Results flagged for a closer look

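No array stood outside the spread of its day for any of the 7 probes by Dixon's test, in 21 groups of 6 arrays. The 3 days are the study's groups, so no effect was measured in more than 1 setting.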

How the results depend on the processing

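The rises of Gldn kept their direction in all 28 settings and passed in 27, the exception in both comparisons with day 0 being slide 1 alone. Those of Nfasc kept theirs in 28 and passed in 25 on day 10 and 26 on day 22 against day 0. The Ank3 probes A_65_P13713 and A_55_P2012999 passed in 23 of 28 on day 22 against day 0. With each batch of a day left out in turn, Gldn differed by 1.88 to 2.28 on day 10 and 2.30 to 2.71 on day 22 against day 0, Nfasc by 1.02 to 1.40 and 0.83 to 1.36, and every one of these passed. The cause of the losses below was not tested, and the settings with single slides and single technical arrays also held fewer arrays.

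Member probes on day 10 against day 0 numbered 0 higher and 0 lower within slide 1, 1 and 0 within slide 2, and 1 and 0 with the first technical arrays. The lower count was 3 with the slide as a block, with 18 arrays and an estimated correlation, and with the second technical arrays. It was 0 against neuron or glial lineage markers, 2 without the first array of batch 1 of day 22, and 1 to 3 with a batch left out. On day 22 against day 0 they numbered 0 and 0 within slide 1 and 1 and 0 with the first technical arrays, and 0 were lower within slide 2 and against either marker list. On day 22 against day 10, 1 was lower with the slide as a block, 0 to 1 with a batch left out, and 1 was higher against neuron markers.

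Differences of members that turned sign had not passed, except Ank3. On day 22 against day 10 Nrcam was -0.047 with the slide as a block, -0.23 in slide 1, -0.053 with the first technical arrays and -0.14 to 0.15 with a batch left out. Nfasc was 0.17 in slide 2, -0.38 to 0.15 with a batch left out, 0.39 against neuron and 0.069 against glial lineage markers. Ank3 A_52_P351925 was -0.11 in slide 1 and -0.059 with the first technical arrays, A_55_P2012999 was -0.10 in slide 1 and -0.014 to 0.16 with a batch left out, and A_65_P13713 was 0.39 against neuron and 0.07 against glial lineage markers. On day 22 against day 0 Nrcam was -0.004 and Sptbn4 -0.35 in slide 1, Sptbn4 was -0.10 without the second array of batch 1 of day 0 and -0.14 to 0.21 with a batch left out. The Ank3 probes A_65_P13713, A_52_P351925 and A_55_P2012999 were 0.042, 0.25 and 0.042 against neuron markers, and the second of these was 0.054 against glial lineage markers. The difference between Ank3 probes, 0.20, missed the threshold with value-table batches.

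The 75 other genes of the node gave 7 higher and 10 lower on day 10 against day 0, 0 and 5 on day 22 against day 10, and 8 and 23 on day 22 against day 0. With the replicate block the middle counts were 1 and 11, and no call of a member changed. On day 10 against day 0 the higher count was 13 with the slide as a block, 3 with value-table batches, 4 with these and the block, and 5 to 12 with a batch left out. The lower count was 17 with an estimated correlation and 6 with no filter, with value-table batches and the block, with the authors' values and without the second array of batch 1 of day 0. It was 4 against neuron and 5 against glial lineage markers, and 6 to 12 with a batch left out. Slide 1 gave 2 and 1, slide 2 gave 1 and 1, the first technical arrays 2 and 2, and the second 2 and 5. On day 22 against day 10 the counts were 8 and 24 with the slide as a block, 5 and 13 with an estimated correlation, 14 and 1 against neuron markers, and 2 and 1 against glial lineage markers. With a batch left out they were 0 to 2 and 1 to 14. The higher count was 1 with quantile normalization, normexp, the stricter filter and without either doubted array. The lower count was 1 with no filter, 3 with value-table batches and the block, and 0 in slide 1, slide 2, either set of technical arrays, value-table batches and the authors' values. For day 22 against day 0 slide 1 gave 3 and 6, slide 2 gave 2 and 6, the first technical arrays 4 and 12, the second 3 and 11, and neuron markers 15 and 5. The lower count was 7 against glial lineage markers, the higher count was 4 with no filter and 5 without the second array of batch 1 of day 0, and a batch left out gave 4 to 8 and 17 to 28.

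Over all probes, 3260 were higher and 5633 lower on day 10 against day 0, against 1668 and 2476 with value-table batches, 599 and 338 in slide 1, 291 and 278 in slide 2, 546 and 522 with the first technical arrays and 1587 and 2667 with the second. Between days 22 and 10 they were 1145 and 1551, against 152 and 412 with value-table batches, 2559 and 3779 with the slide as a block and 0 and 0 in either slide. For day 22 against day 0 they were 4922 and 8527, against 1884 and 1766 in slide 1 and 1573 and 2233 in slide 2. With 3 batches a day, the spread between batches limited what could be called: Sptbn4, with an SE of 0.20, did not pass at 0.57, while Ank3 probes with an SE of 0.10 passed at -0.40. The 4 settings relative to markers or without a doubted array were chosen after seeing the data.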
